A study of Mus musculus with 14 samples.

Results

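The genes described here are 8 of the 54532 genes in the count table: the immunoglobulin heavy chain constant region genes Ighm, Igha, Ighg2b, Ighg2c and Ighg3, the kappa light chain constant region gene Igkc, and Jchain and Mzb1. They were taken by gene name, and the names were proposed with measured levels of these genes in the same libraries known, so their values and the counts of them past a threshold are given as a description, with no p-value, and nothing is read from those counts. In all, 6 of the 8 passed the filter on low counts, and Ighg2c and Ighg3 did not.

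The study asked whether raising c-Myc in endothelial cells changes the response of skeletal muscle to a western style high-fat diet, and messenger RNA of skeletal muscle from male FVB/N mice was sequenced. Endothelial c-Myc overexpression (OE) mice carried a Tet-O-Myc transgene, which encodes human c-Myc, and the transactivator Cdh5-tTA, which is driven by the promoter of an endothelial cadherin. Control (CT) mice came from the same litters and had Tet-O-Myc but no Cdh5-tTA. Tet-O-Myc is Y-linked, so all mice were male. Doxycycline in the food keeps the transgene off, and it was taken away at an age of 4 to 6 weeks. The labels give 20 weeks on a control diet (CTD) or the western diet (WD), whereas the study's text gives a shorter exposure and other group sizes for the sequenced muscle, and the labels were followed here. The age at tissue harvest was not given in the sources used here. The groups were CT-CTD (3 libraries), CT-WD (3 libraries), OE-CTD (4 libraries) and OE-WD (4 libraries), and each library held between 21833839 and 28519159 counts. The methods name soleus and gastrocnemius muscle, and the labels do not say which muscle each library came from. Because the transgene is human, the level of mouse Myc does not check the genotype.

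Libraries of the 2 genotypes carry names of different series, so genotype and any difference between those series cannot be told apart. CT libraries numbered 1 are named M352 and M351, and the other 4 CT libraries are named M689 to M692. The OE-WD libraries are named M08548, MT8548, MB8548 and MTB8548, and 3 of the OE-CTD libraries M01181, MM1181 and MT1181. What the shared numbers stand for was not given in the sources used here, so whether these libraries come from separate mice is not known. Each n is therefore a number of libraries, and p-values measure the spread between these samples. Summed counts scaled to library size (CPM) of the muscle genes Ckm, Acta1, Des, Myog and Pax7 lay between 53910 and 74459 in each library. Acta1 (42921 CPM), Ckm (13426 CPM) and Des (4856 CPM) made up nearly all of the sum. Pax7 was low, at 0.578 to 2.55 CPM. Myog ran from 5.85 to 76.6 CPM with a median of 8.95 CPM, and its highest value was in CT-WD 3. CT-CTD 3 and CT-WD 3 stood apart from the other libraries in several of the genes described here. Group means, fitted differences and Pearson correlations of Igha that rest on them are given with and without them, and its ratio and shares with them only. CT-WD 3 also had the highest Ell2 (63.4 CPM), a gene of the plasma cell list below, and the lowest level of the adipocyte gene Lep (0.356 CPM). The part of these differences in the levels of Igha was not tested.

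An antibody is built from heavy and light chains, and the constant region of the heavy chain sets its class: Ighm encodes that of IgM, Igha that of IgA and the Ighg genes those of IgG subclasses. A B cell first joins variable, diversity and joining segments upstream of Ighm, and can later replace Ighm by a downstream constant gene through class switching, which is preceded by transcription of the unswitched constant gene. Plasma cells secrete antibody with the help of Mzb1, a chaperone of the endoplasmic reticulum, and of Jchain, which links IgM or IgA units into polymers. Skeletal muscle is known to hold few cells of the B lineage.

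Ighm (ENSMUSG00000076617, chr12:113418558-113422730, minus strand, GRCm38), the gene of the first heavy chain a B cell makes, was the most abundant of the 8 genes per length. It had a mean of 262 FPKM, fragments scaled to gene length and library size, over the 14 libraries, rank 140 of 54532 genes. Its FPKM was 205, 394 and 327 in CT-CTD libraries 1 to 3, and 195, 311 and 344 in CT-WD libraries 1 to 3. It was 218, 261, 230 and 251 in OE-CTD libraries 1 to 4, and 241, 250, 203 and 234 in OE-WD libraries 1 to 4. The 4 highest libraries were CT libraries 2 and 3 of each diet, while CT libraries 1 of both diets lay within or below the range of the OE libraries, so the groups overlapped.

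After normalization for library size and composition, Ighm had a mean of 532 ± 162 CPM (SD, n = 3) in CT-CTD, 488 ± 131 CPM (SD, n = 3) in CT-WD, 414 ± 32.8 CPM (SD, n = 4) in OE-CTD and 399 ± 34.9 CPM (SD, n = 4) in OE-WD. Neighbours in this order differed by less than the SD of the CT groups. The spread was larger in the CT groups than in the OE groups, and the lowest CT values, 355 CPM in CT-CTD 1 and 341 CPM in CT-WD 1, were in the libraries named M352 and M351. The part of the name series in this difference was not tested. In bulk tissue, fewer cells of a type and less RNA per cell cannot be told apart, here and for the genes that follow.

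Igha (ENSMUSG00000095079, chr12:113254830-113260236, minus strand), the gene of the IgA heavy chain, had 154, 265 and 850 counts in CT-CTD libraries 1 to 3 and 105, 111 and 643 counts in CT-WD libraries 1 to 3. It had 33, 49, 30 and 35 counts in OE-CTD libraries 1 to 4 and 44, 73, 44 and 37 counts in OE-WD libraries 1 to 4. All 6 CT libraries were above all 8 OE libraries, and CT-CTD 3 and CT-WD 3 were the highest. The share of all genes that separate the genotypes in this way is not given here, so nothing is read from the separation. On the normalized scale the CT libraries ran from 3.80 to 33.8 CPM with a median of 8.59 CPM, and the OE libraries from 1.24 to 2.56 CPM with a median of 1.66 CPM. The ratio of the CT median to the OE median was 5.16, with CT-CTD 3 and CT-WD 3 included.

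The group means of Igha were 17.0 ± 14.7 CPM (SD, n = 3) in CT-CTD, 12.6 ± 13.9 CPM (SD, n = 3) in CT-WD, and, in the OE mice, 1.91 ± 0.463 CPM (SD, n = 4) on the western diet and 1.48 ± 0.269 CPM (SD, n = 4) on the control diet. The diets of each genotype are neighbours in this order and overlapped. CT-CTD 3, at 33.8 CPM, and CT-WD 3, at 28.6 CPM, set most of the spread in the CT groups, and without them the means were 8.59 CPM in CT-CTD and 4.58 CPM in CT-WD, of 2 libraries each. Per length Igha was far below Ighm, with a mean of 2.99 FPKM and a range of 0.504 to 13.7 FPKM.

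Ighg2b (ENSMUSG00000076613, chr12:113302965-113307933, minus strand), a gene of the IgG2b heavy chain, had 4, 12 and 68 counts in CT-CTD libraries 1 to 3 and 1, 16 and 64 counts in CT-WD libraries 1 to 3. In OE-CTD libraries 1 to 4 it had 0, 9, 4 and 2 counts, and in OE-WD libraries 1 to 4 it had 0, 0, 4 and 3 counts. The CT libraries numbered 3 were again the highest, at 2.70 and 2.85 CPM, and the CT and OE libraries overlapped through CT-CTD 1 and CT-WD 1. A count of 0 allows up to 3 counts in a library, for counting error only.

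Ighg3 (ENSMUSG00000076615, chr12:113356224-113361232, minus strand), the gene of the IgG3 heavy chain, had 0, 3 and 11 counts in CT-CTD libraries 1 to 3, 0, 2 and 5 counts in CT-WD libraries 1 to 3, and 0 counts in all 8 OE libraries. Its highest counts, 11 and 5, were in the same CT libraries numbered 3. Ighg2c (ENSMUSG00000076612, chr12:113285325-113288932, minus strand), the gene of the IgG2c heavy chain, had 2 counts in CT-CTD 2, 1 count in CT-WD 1, 1 count in OE-WD 3 and 0 counts in the other 11 libraries. At these counts no difference of Ighg2c between groups was detectable.

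Igkc (ENSMUSG00000076609, chr6:70726435-70726966, plus strand), the constant region of the kappa light chain that most mouse antibodies use, had 92 counts over all 14 libraries, with a range of 1 to 14. Its counts were 12, 11 and 2 in CT-CTD libraries 1 to 3, 10, 5 and 4 in CT-WD libraries 1 to 3, 6, 2, 6 and 14 in OE-CTD libraries 1 to 4, and 1, 10, 8 and 1 in OE-WD libraries 1 to 4. The groups overlapped, and the CT libraries numbered 3, which were highest for Igha, were the lowest of their groups for Igkc. The lambda constant genes had 3 counts in all. The light chain was far below the heavy chain: the FPKM of Ighm was 168 to 3023 times that of Igkc, with a median of 459.

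Jchain (ENSMUSG00000067149, chr5:88519809-88527891, minus strand), which links antibody units, had 3, 8 and 13 counts in CT-CTD libraries 1 to 3 and 12, 10 and 6 counts in CT-WD libraries 1 to 3. It had 7, 13, 10 and 11 counts in OE-CTD libraries 1 to 4 and 15, 7, 4 and 4 counts in OE-WD libraries 1 to 4. The groups overlapped, and the FPKM of Ighm was 954 to 3996 times that of Jchain, with a median of 1677.

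Mzb1 (ENSMUSG00000024353), the chaperone, had 31, 28 and 40 counts in CT-CTD libraries 1 to 3, 29, 42 and 43 counts in CT-WD libraries 1 to 3, 23, 40, 34 and 22 counts in OE-CTD libraries 1 to 4, and 47, 35, 27 and 35 counts in OE-WD libraries 1 to 4. All groups overlapped, between 1.06 and 2.46 FPKM. In the GENCODE M21 annotation, 53.5% of its 50-base words also lie in a transcript of a gene listed as SPATA24, so its counts are uncertain.

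**Figure D1:**
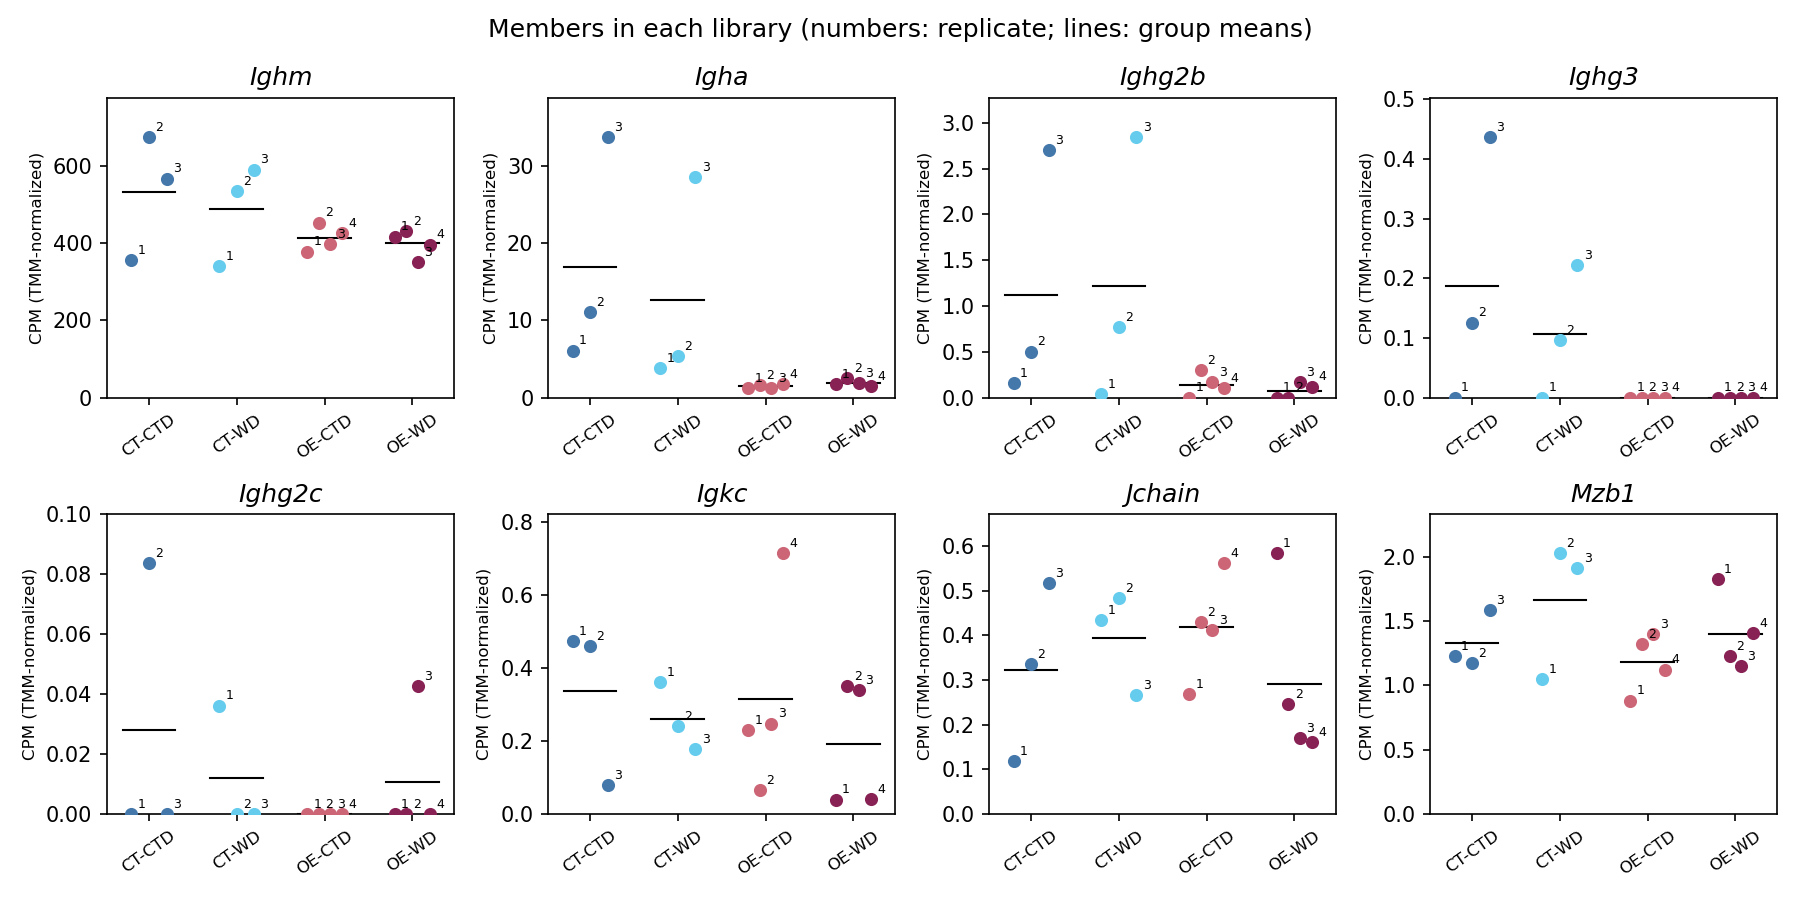
Level of each of the 8 genes in each library, in TMM-normalized CPM on a linear axis from 0, by group (CT-CTD, CT-WD, OE-CTD and OE-WD). Points are libraries with their replicate number and lines are group means; Igha lies between 3.80 and 33.8 CPM in the CT libraries and between 1.24 and 2.56 CPM in the OE libraries.

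The label plasma cell was checked against its markers, which were mixed. Of 17 plasma cell genes, 12 passed the filter, and the most abundant were Xbp1 (69.4 CPM, a regulator of the unfolded protein response), Txndc5 (42.9 CPM), Ell2 (31.2 CPM) and Sec11c (12.1 CPM), which serve protein folding, transcription or secretion in many cells. Of the genes used to mark plasma cells, Sdc1, the surface protein CD138 that epithelial cells also carry, was at 7.64 CPM, Cd38 at 4.69 CPM, Irf4 at 1.19 CPM, Prdm1 at 0.839 CPM and Tnfrsf13b at 0.522 CPM, and all 5 passed the filter. Others were near 0: Tnfrsf17, the receptor BCMA, had 20 counts over all 14 libraries, Pou2af1 had 8, Slamf7 had 13 and Derl3 had 57. The summed level of the list ran from 166 CPM in CT-CTD 2 to 222 CPM in CT-WD 3. Its median was 185 CPM in CT and 182 CPM in OE libraries, a sum made up mostly of Xbp1, Txndc5 and Ell2, so it says little of plasma cells. These levels do not settle the label, and the 8 genes are called by name here.

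B cell genes were also low. Of 18 genes, 2 passed the filter, Blnk (1.80 CPM) and Cd37 (1.59 CPM), and no gene of the list was at 0 in every library. Over all 14 libraries Cd79b had 39 counts, Cd79a had 32, Pax5 had 18, Cd22 had 9 and Ms4a1 had 3, against 155903 counts of Ighm. The next most abundant genes of the list were Bank1 (0.205 CPM) and Cd79b (0.110 CPM). The summed level of the list was lowest in CT-CTD 3, at 2.26 CPM, and was 3.51 CPM in CT-WD 3, while the OE libraries ran from 4.25 to 6.14 CPM. By this sum, the libraries with the most Igha were not those with the most B cell transcripts. The sum was made up mostly of Blnk and Cd37, so it says little of B cells. Of single genes, Pax5 was highest in CT-WD 3 (0.267 CPM), Cd79a in CT-WD 2 (0.242 CPM) and Cd79b in OE-WD 3 (0.340 CPM).

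Counts of variable segments, which rearranged antibody genes carry, were near 0. The 348 variable segments in the count table had 41 counts in all, of 347313605 counts, and 17 segments had any. A library held 0 to 8 such counts, with a median of 3, and CT-CTD 3, CT-WD 2, CT-WD 3 and OE-WD 4 held 0, which allows up to 3 counts. No heavy chain variable segment had more than 1 count. The most abundant light chain segments were Igkv4-57-1 with 6 counts and Igkv1-117 with 4, followed by 5 segments with 3. The heavy chain joining segments Ighj1, Ighj2, Ighj3 and Ighj4 had 10, 4, 8 and 11 counts.

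**Figure D2:**
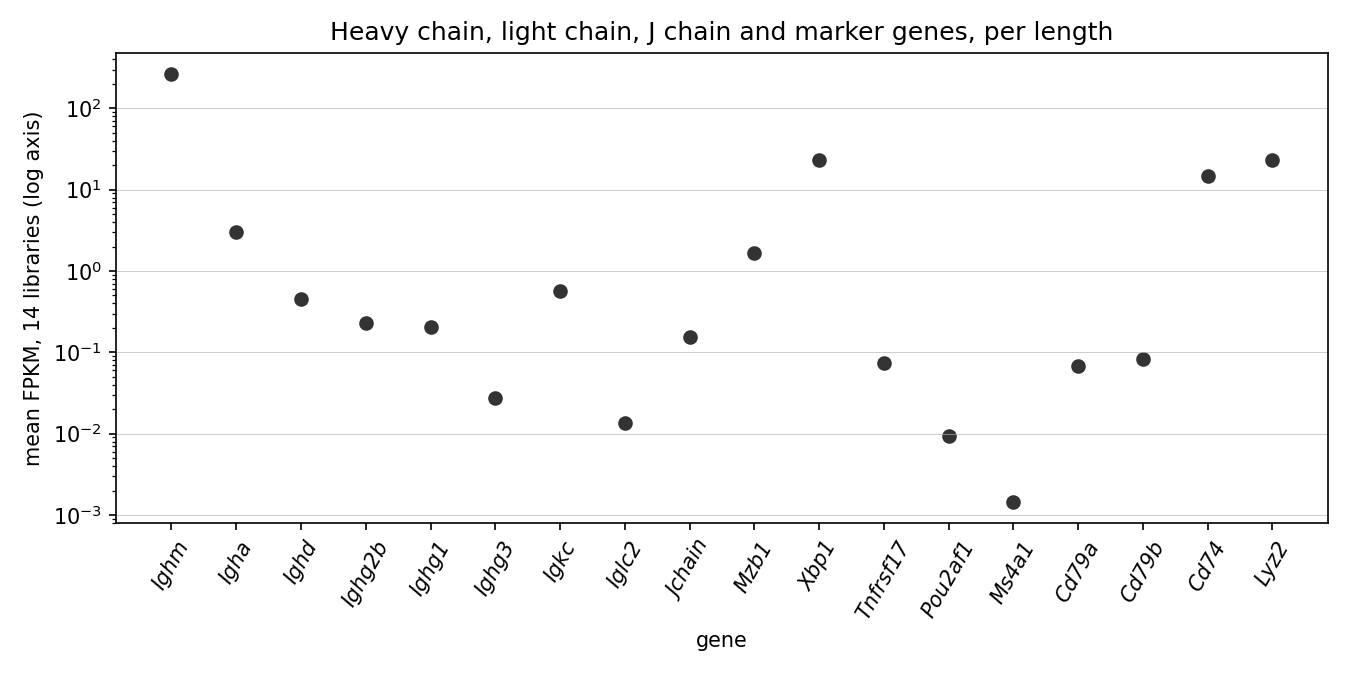
Mean FPKM over the 14 libraries, on a log axis, of heavy chain, light chain, Jchain, Mzb1 and marker genes. Points are genes; Ighm is at 262 FPKM, and Igkc (0.562 FPKM), Jchain (0.155 FPKM), Tnfrsf17 (0.0736 FPKM) and Cd79b (0.0838 FPKM) are far below it.

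Among the heavy chain constant genes, Ighm took between 95.2% and 99.6% of the summed FPKM of a library, with a median of 99.3%. By counts the median was 99.2%. Of the FPKM left without Ighm, Igha took a median of 77.2% in the CT libraries (range 69.6% to 86.3%) and 47.8% in the OE libraries (range 36.4% to 75.4%), so the ranges overlapped. Ighd, which encodes the IgD heavy chain, took a median of 7.20% of that rest in the CT and 34.7% in the OE libraries. These shares rest on few counts, and the shares of a library sum to a whole.

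Other constant genes were taken from a list of 8, of which 7 were used. Ighg1, the gene of the IgG1 heavy chain, had 7, 19 and 48 counts in CT-CTD libraries 1 to 3, 2, 11 and 30 counts in CT-WD libraries 1 to 3, and between 0 and 11 counts in the OE libraries. As for Igha and Ighg2b, the highest Ighg1 counts were in the CT libraries numbered 3, and the genotypes overlapped. Ighd was between 4 and 43 counts, with a median of 0.728 CPM in CT and 0.756 CPM in OE libraries, and Ighe, the gene of the IgE heavy chain, was between 0 and 8 counts. Iglc1, Iglc3 and Iglc4 were at 0 in all libraries.

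Igha and Ighg2b varied together across the 14 libraries, with a Pearson correlation of log2 CPM of 0.833 and a Spearman correlation of 0.576. Without CT-CTD 3 and CT-WD 3 the Pearson correlation was 0.519, so much of it rests on those libraries. Igha and Ighm had a Pearson correlation of 0.703 and a Spearman correlation of 0.473, and 0.54 without the same libraries. Igha and Igkc had a Pearson correlation of 0.0218 and a Spearman correlation of 0.262, and a Pearson correlation of 0.467 without the same libraries. For Igha and Jchain the Pearson correlation was 0.0478, and -0.101 without them, and for Ighm and Igkc it was -0.104, and 0.0534 without them. The points share library and depth, are grouped by genotype, and are given as a description of 14 libraries.

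The region between Ighg3 and Ighd was then examined, and its genes were chosen after their values were seen. The pseudogene Gm17421 (chr12:113369522-113372201) had 16, 91 and 272 counts in CT-CTD libraries 1 to 3, 13, 52 and 155 counts in CT-WD libraries 1 to 3, and between 2 and 19 counts in the OE libraries. Gm9136 (chr12:113396771-113397224) had 28, 123 and 295 counts and 16, 66 and 225 counts in the same CT groups, and between 2 and 25 counts in the OE libraries. Gm5190 (chr12:113397229-113397585) had 9, 90 and 262 counts and 24, 51 and 159 counts in the same CT groups, and between 2 and 26 counts in the OE libraries.

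These 3 pseudogenes were highest in the same CT libraries numbered 3 and low in CT libraries 1 and in the OE libraries. Gm9134 (chr12:113381011-113381561) had between 0 and 20 counts, with 20 in CT-CTD 3 and 14 in CT-WD 3. Their Pearson correlations with Igha were 0.915 for Gm17421, 0.903 for Gm9136, 0.874 for Gm5190 and 0.865 for Gm9134, over 14 libraries that share genotype and depth. Without CT-CTD 3 and CT-WD 3 they were 0.779, 0.769, 0.681 and 0.526 in the same order. Outside the immunoglobulin genes, Tmem121 had between 0 and 7 counts and Tedc1 between 1 and 9.

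**Figure D3:**
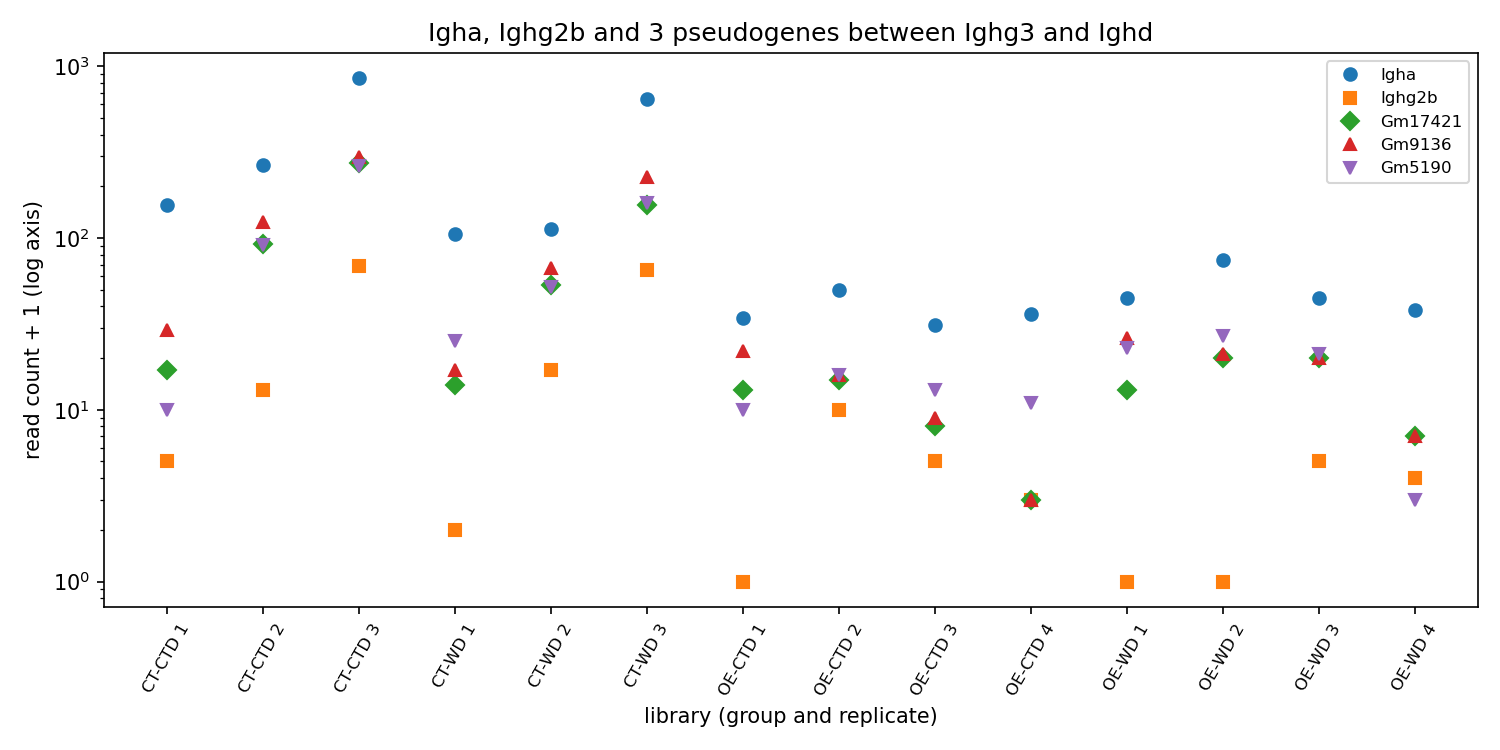
Read counts plus 1, on a log axis, of Igha, Ighg2b and the pseudogenes Gm17421, Gm9136 and Gm5190 in each of the 14 libraries, named by group and replicate. Points are genes; all 5 are highest in CT-CTD 3 and CT-WD 3, where Igha had 850 and 643 counts.

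The levels of other cell types moved between libraries as well. In CT-CTD 3 and CT-WD 3, the libraries highest for Igha, the summed level of 5 MHC class II genes was lowest of all libraries, at 11.8 and 11.6 CPM, against 13.4 CPM or more in the others. The most abundant gene of that list was Cd74 (18.9 CPM). The summed level of 9 macrophage genes, led by Lyz2 (28.1 CPM), was 46.6 CPM in CT-CTD 3 and 57.6 CPM in CT-WD 3, against 52.6 CPM in CT-CTD 2 and 70.2 to 139 CPM in the other libraries. No gene of either list was at 0 in every library, and the part of these cells in the levels of Igha was not tested.

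Genes that would mark lymph node were near 0: of 11 identifiers 2 passed the filter, Glycam1 had 0 counts in all 14 libraries, and the list summed to 2.74 CPM in CT-CTD 3, 0.622 CPM in CT-WD 3 and at most 3.27 CPM, in OE-CTD 2. Its most abundant gene was Ccl21a (0.640 CPM). Of 15 T cell genes 2 passed the filter, Tcf7 (0.765 CPM) and Cd247 (0.518 CPM), and the list summed to between 1.21 and 3.45 CPM. Blood genes, led by Hba-a1 (138 CPM), summed to 191 CPM in CT-CTD 3 and 250 CPM in CT-WD 3, within the range of the others, 125 to 382 CPM.

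Adipocyte genes, led by Cfd (33.2 CPM), summed to 45.4 CPM in CT-CTD 3 and to 22.5 CPM, the lowest value, in CT-WD 3, with 177 CPM, the highest, in CT-CTD 1. Epidermal genes, led by Krt5 (10.1 CPM), ran from 2.45 to 120 CPM and were 11.2 and 10.3 CPM in the CT libraries numbered 3. Fast fibre genes, led by Myh4, ran from 68832 to 105557 CPM, and slow fibre genes, led by Myh7, from 2889 to 4525 CPM, with the CT libraries numbered 3 inside both ranges. The part of these tissues in the levels of Igha was not tested.

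Differences between groups were then taken from a model of all 15458 genes that passed the filter, where a gene was called altered at a fold over 1.5 with a p under 0.05, adjusted over all genes or unadjusted. The first question was how endothelial c-Myc overexpression differed from control on the control diet. Igha was lower in OE-CTD than in CT-CTD, with a log2 difference of -3.53 (SE 0.65), and the log2 difference of Ighg2b was -2.90 (SE 1.14), while that of Ighm was -0.36 (SE 0.19), and -0.59 without CT-CTD 1 and -0.16 without CT-CTD 2. Igkc (-0.18, SE 0.79), Jchain (0.35, SE 0.55) and Mzb1 (-0.17, SE 0.29) differed by less than their SE on the log2 scale. With 1 library left out, Igkc ran from -0.64 to 0.19, Jchain from -0.05 to 0.86 and Mzb1 from -0.26 to -0.02.

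At the adjusted level, 1 of the 6 genes tested, Igha, was called in OE-CTD against CT-CTD, where 1.91% of all genes were called. At the unadjusted level, 2 of 6, Igha and Ighg2b, were called, both lower in OE-CTD, against 7.12% of all genes. Ighg2b reached the minimum of the filter in 4 CT libraries, those numbered 2 and 3, and in 0 OE libraries, so its direction in this and the next comparison was partly set by the filter and its calls support nothing. DESeq2 called Igha of the 4 members to which it gave an adjusted p, against 3.46% of such genes. Limma on log2(FPKM + 1) called 0 of 6, against 0.757% of all genes, and limma on log2(FPKM + 0.1) called Igha, against 1.27%. Without CT-CTD 3 the log2 difference of Igha was -2.54 and it was no longer called at the adjusted level, and that of Ighg2b was -1.14. Over 15 alternatives the log2 difference of Ighg2b ran from -3.62 to -0.40, the latter on log2(FPKM + 1). With both CT libraries numbered 3 left out, an alternative chosen after the values were seen, Igha was at -2.54 and was called. The call of Igha was also lost with the replicate number as a block (-3.28) and on log2(FPKM + 1) (-2.04).

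On the western diet, Igha had a log2 difference of -2.71 (SE 0.63) in OE-WD against CT-WD, Ighg2b of -4.03 (SE 1.27) and Ighm of -0.29 (SE 0.19). The difference of Ighm was -0.49 without CT-WD 1 and -0.13 without CT-WD 3. Igkc (-0.44, SE 0.84), Jchain (-0.43, SE 0.55) and Mzb1 (-0.23, SE 0.29) differed by less than their SE on the log2 scale. With 1 library left out, Igkc ran from -0.92 to -0.10, Jchain from -1.01 to -0.24 and Mzb1 from -0.49 to -0.07. With edgeR 0 of 6 members were called at the adjusted level, where 0.563% of all genes were called, and 2 of 6, Igha and Ighg2b, at the unadjusted level, both lower in OE-WD, against 5.74% of all genes. DESeq2 called 1 of the 4 members with an adjusted p, Igha, against 2.16% of such genes, and limma on FPKM with either pseudocount called 0 of 6, against 0.194% of all genes. Without CT-WD 3 the log2 difference of Igha was -1.25 and that of Ighg2b -2.39, which over 15 alternatives ran from -4.80 to -0.47, the latter on log2(FPKM + 1). Without CT-WD 1 both Igha (-3.15) and Ighg2b (-4.62) were called at the adjusted level. Without a filter on low counts both were called at the adjusted level in each diet.

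The question of the diet was asked within each genotype. In the CT mice, the log2 difference of Igha in CT-WD against CT-CTD was -0.44 (SE 0.62), that of Ighm -0.12 (SE 0.20, and 0.08 without CT-CTD 2 and -0.36 without CT-CTD 1) and that of Mzb1 0.31 (SE 0.31). With 1 library left out, Mzb1 ran from 0.14 to 0.57. Ighg2b was at 0.10 (SE 1.03), and at -1.54 without CT-WD 3 and 1.86 without CT-CTD 3. With edgeR 0 of 6 members were called at the adjusted level, against 0% of all genes, and 0 of 6 at the unadjusted level, against 3.05% of all genes. DESeq2 called 0 of the 3 members with an adjusted p, against 0.237% of such genes, and limma on FPKM 0 of 6, against 0% of all genes. Igha was lower on the western diet in each same-numbered pair of CT libraries, at 3.80 against 6.09 CPM, 5.36 against 11.1 CPM and 28.6 against 33.8 CPM. With the replicate number as a block its log2 difference was -0.63 and it was called at the unadjusted level only. Without CT-WD 3 the difference was -1.90, and without CT-CTD 3 it was 0.55.

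In the OE mice, the log2 difference of Igha in OE-WD against OE-CTD was 0.38 (SE 0.67), that of Ighg2b -1.03 (SE 1.49) and that of Ighm -0.05 (SE 0.18). Igha was at 0.20 without OE-WD 2. Ighg2b was at -1.81 without OE-WD 3 and at -0.30 without OE-CTD 2, and Ighm was at 0.0052 without OE-WD 3. With edgeR 0 of 6 members were called at the adjusted level, against 0.00647% of all genes, which is 1 gene, and 0 of 6 at the unadjusted level, against 1.37% of all genes. DESeq2 and limma on FPKM also called 0 of 6 at the adjusted level, each against 0.00647% of genes. All 6 genes overlapped between the diets.

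Whether the diet acted differently in OE than in CT mice was taken as an interaction. The log2 difference of the diet differences was 0.82 (SE 0.91) for Igha, -1.13 (SE 1.80) for Ighg2b and 0.07 (SE 0.27) for Ighm. With edgeR 0 of 6 members were called at the adjusted level, against 0% of all genes, and 0 of 6 at the unadjusted level, against 2.7% of all genes. DESeq2 called 0 of the 3 members with an adjusted p, against 0.074% of such genes, and limma on FPKM 0 of 6, against 0% of all genes. With the replicate number as a block Igha, at 1.0, was called at the unadjusted level only. Without CT-WD 3 the value for Igha was 2.28, and without CT-CTD 3 it was -0.17. The sign also turned for Ighg2b, at 0.51 without CT-WD 3 and -2.89 without CT-CTD 3, and for Ighm, at 0.30 without CT-CTD 1 and -0.14 without CT-CTD 2. The comparisons of OE with CT and of the diets share libraries.

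The median log2 difference of the 6 members was -0.27 in OE-CTD against CT-CTD, -0.43 in OE-WD against CT-WD, -0.01 in CT-WD against CT-CTD and -0.28 in OE-WD against OE-CTD. The medians over all genes tested lay within 0.01 of 0 in these comparisons. The 6 members were proposed with their levels known, and the direction of Ighg2b between genotypes was partly set by the filter. Nothing is therefore read from the medians of the members.

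Genes were also taken from 15 lists, for B cells, plasma cells, their survival factors and immunoglobulin receptors and for other blood, immune, fat, skin and muscle cells, and 75 of these genes passed the filter. Tgfb1, a cytokine that directs class switching to IgA among many other roles, was the only list gene called at the adjusted level by edgeR. Tgfb1 had 7.55, 8.37 and 5.72 CPM in CT-CTD libraries 1 to 3 and 11.8, 11.7, 13.6 and 17.5 CPM in OE-CTD libraries 1 to 4. All 4 OE-CTD libraries were thus above all 3 CT-CTD libraries, and the share of all genes that separate in this way is not given here. The lists were chosen with earlier results of these data known, so the p of Tgfb1 is given as a description. Tgfb1 rose in OE-CTD against CT-CTD with a log2 difference of 0.91 (SE 0.20). Its adjusted p was 0.0253 (edgeR's quasi-likelihood test with Benjamini-Hochberg adjustment), over a range of 0.00074 to 0.14 in 16 alternatives. The call was lost in 7 of these, without CT-CTD 1 (adjusted p 0.0524), CT-CTD 2 (0.0558), CT-CTD 3 (0.14), OE-CTD 3 (0.0645) or both CT libraries numbered 3 (0.121), with the replicate number as a block (0.0825), and with limma on log2(FPKM + 1) (0.0517). Its differences were 0.40 (SE 0.19) in OE-WD against CT-WD and -0.52 (SE 0.27) for the interaction, not called.

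At the unadjusted level edgeR called 18 of the 75 list genes in OE-CTD against CT-CTD, where 7.12% of all genes were called, 6 in OE-WD against CT-WD (5.74% of all genes) and 6 in CT-WD against CT-CTD (3.05%). It called 3 in OE-WD against OE-CTD (1.37%), Fkbp11, Ccl21a and Krt10, and 3 in the interaction (2.7%), Fkbp11, C1qa and Myog. Among the calls at that level, Myog was higher in CT-WD than in CT-CTD (2.22, SE 0.54) and lower in OE-WD than in CT-WD (-2.17, SE 0.49). DESeq2 called 6 of the 74 list genes with an adjusted p in OE-CTD against CT-CTD, against 3.46% of such genes: Tgfb1, Prdm1, C1qa, C1qb, Cd68 and Ighg1. It called 3 of 73 in OE-WD against CT-WD, against 2.16%, Cd38, Myog and Lep, and 0 in the other comparisons, where 62, 75 and 57 list genes had an adjusted p in CT mice, in OE mice and in the interaction.

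Of the survival and class switch list, 5 of 9 genes passed the filter, and its most abundant gene was Cxcl12 (149 CPM), a chemokine that retains plasma cells in their niche, followed by Tgfb1 (10.5 CPM), Cd40 (0.588 CPM) and Tnfsf13 (0.585 CPM). Il21 had 0 counts in all 14 libraries. In OE-CTD against CT-CTD the list had a median log2 difference of 0.47, 1 gene called higher at the adjusted level and 2, Tgfb1 and Cd40, at the unadjusted level. It had 0 calls at either level by edgeR, and 0 at the adjusted level by DESeq2 and limma, in the other comparisons, and DESeq2 gave an adjusted p to 2 of the 5 genes in CT-WD against CT-CTD and in the interaction.

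In the plasma cell list edgeR called 0 of 12 genes at the adjusted level in each comparison. At the unadjusted level it called Prdm1 in OE-CTD against CT-CTD, with a log2 difference of 1.63 (SE 0.48), and Cd38 (0.65, SE 0.18) and Fkbp11 (-0.80, SE 0.37) in OE-WD against CT-WD. Fkbp11 was also called at that level in OE-WD against OE-CTD and in the interaction. DESeq2 called Prdm1 and Cd38 at the adjusted level in those comparisons, and limma called 0. Prdm1, a regulator of plasma cell differentiation that other cells also use, had 5 to 58 counts.

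Receptors and transporters of immunoglobulin were led by Fcgrt, the neonatal Fc receptor (58.9 CPM), followed by Trim21 (2.60 CPM), Fcgr2b (2.11 CPM) and Fcer1g (1.30 CPM), and 5 of 9 passed the filter. Pigr, which carries IgA across epithelia, had 26 counts over all libraries, 23 of them in OE-CTD 1. Of this list edgeR and limma called 0 of 5 at the adjusted level in each comparison, as did DESeq2, which gave an adjusted p to 3 of the 5 in the interaction, and edgeR called Fcgr2b at the unadjusted level in OE-CTD against CT-CTD (0.92, SE 0.43). Of the other constant genes that passed, Ighd and Ighg1, edgeR called 0 at the adjusted level and Ighg1 at the unadjusted level in OE-CTD against CT-CTD (-2.99, SE 0.86, and -2.10 without CT-CTD 3), and on log2(FPKM + 1) it was at -0.40 and not called. Ighg1 reached the minimum of the filter in 4 CT libraries, those numbered 2 and 3, in OE-WD 3 and in 0 OE-CTD libraries, so its direction there was partly set by the filter and its calls by edgeR and DESeq2 support nothing.

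Of the remaining lists edgeR called 0 genes at the adjusted level in each comparison. At the unadjusted level in OE-CTD against CT-CTD, where 7.12% of all genes were called, 764 higher and 337 lower, it called 7 of 9 macrophage genes, all higher, with a median log2 difference of 0.87 over the list. It also called higher H2-Eb1 of 5 MHC class II genes (1.78, SE 0.70), Cd37 of the B cell list (0.79, SE 0.34), Lep of the adipocyte list (1.95, SE 0.68) and Lor of the epidermal list (2.77, SE 1.23). Lower were Cfd of the adipocyte list (-1.34, SE 0.54) and Cxcl13 of the lymph node list (-1.28, SE 0.56). DESeq2 called 3 macrophage genes, C1qa, C1qb and Cd68, at the adjusted level in that comparison, and limma called 0. In OE-WD against CT-WD 0 macrophage genes were called by edgeR at either level, or by DESeq2 or limma at the adjusted level. In CT-WD against CT-CTD edgeR called C1qa (0.60, SE 0.26) and C1qb (0.74, SE 0.28) higher at the unadjusted level, with a list median of 0.56. Summed macrophage genes were at 86.8, 52.6 and 46.6 CPM in CT-CTD libraries 1 to 3. They were at 88.8, 108, 138 and 87.1 CPM in OE-CTD libraries 1 to 4.

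Genes whose pattern was most like that of the members were ranked by the Pearson correlation, over the 14 libraries, of their log2 CPM with the mean log2 CPM of the 6 members that passed the filter. The 10 highest were Wdsub1 (0.947), Itfg1 (0.940), Stt3b (0.922), Gm17709 (0.917), Cdkal1 (0.914), Vdac2 (0.912), Ctxn3 (0.910), Tbc1d19 (0.910), Cd164 (0.909) and Snap29 (0.908). By Spearman correlation 1 of these 10 was again among the 10 highest, and without CT-WD 3, the library with the highest mean, 6 of 10 were. Pearson correlations between members ran from -0.503 (Igkc and Mzb1) to 0.833 (Igha and Ighg2b), so the mean does not stand for each member. The mean also includes Ighg2b, which reached the minimum of the filter in CT libraries only. The genes most like Igha alone, a ranking added after the values were seen, were Stt3b (0.958, and 0.904 without CT-CTD 3 and CT-WD 3) and Wdsub1 (0.958, and 0.927 without them), and the gene most like Ighm alone was Xrcc5 (0.955).

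The sequences of the constant genes bear on whether reads could be assigned to one of them. Of the 50-base words in the GENCODE M21 transcripts, 0% of those of Ighm, Igha and Igkc occur in another gene, against 4.15% for Ighg2b, 5.49% for Ighg2c and 1.58% for Ighg3, whose words lie in other Ighg genes, and 0.288% for Jchain. The first exons of Ighg2b and Ighg2c, each 291 bases long, are identical at 255 positions (87.6%). The reads were aligned to the C57BL/6J reference, the mice were FVB/N, and the effect of strain differences on these counts was not tested. The first 90 bases of the first constant region exon are shown to compare a gene with no shared words, Ighm, with a closely related pair, from the minus strand of GRCm38 and written 5′ to 3′. They lie at chr12:113422641-113422730 (Ighm), chr12:113307844-113307933 (Ighg2b) and chr12:113288843-113288932 (Ighg2c), inside coding exons, and capitals mark the 7 bases that differ between Ighg2b and Ighg2c.
Ighm: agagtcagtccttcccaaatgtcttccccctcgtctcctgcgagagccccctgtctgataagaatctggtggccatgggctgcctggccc
Ighg2b: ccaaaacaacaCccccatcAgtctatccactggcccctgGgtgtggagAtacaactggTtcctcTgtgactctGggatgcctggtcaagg
Ighg2c: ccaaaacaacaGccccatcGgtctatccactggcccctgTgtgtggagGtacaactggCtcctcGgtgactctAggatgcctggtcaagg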

How the data were processed

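Messenger RNA of 14 skeletal muscle libraries was sequenced, and gene counts and FPKM values were deposited by the authors. According to the submitters' processing notes, HISAT2 2.0.5, featureCounts 1.5.0-p3 and build mm10 were used, and the strand setting was not given in the sources used here. The deposited counts are whole reads per gene, and the deposited FPKM values are those counts scaled by the authors to gene length and library size.

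Genes were filtered with filterByExpr by group, which left 15458 of 54532, normalized by TMM and tested with edgeR 4.0.16 in R 4.3.3 (quasi-likelihood test, means for 4 groups over all 14 libraries, Benjamini-Hochberg adjustment). Log2 CPM used a prior count of 2, and SE is the log2 difference divided by the square root of F. The biological coefficient of variation was 17%. The steps were tested on simulated counts. Alternatives were DESeq2 1.42.0, limma 3.58.1 on log2(FPKM + 1) and log2(FPKM + 0.1), other normalizations, no filter, a replicate block, only the 2 groups compared, and leaving out libraries. Sequences came from GENCODE M21 transcripts and were read with Python 3.11.15.

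Members and lists were chosen with earlier results of these data known. Named were the members, the up to 4 most abundant genes of a list, list genes called at the adjusted level, up to 3 variable segments of each chain and the 10 genes most like the members. Other names, among them defining markers and genes near Ighd, were chosen after their values were seen. Heavy chain variable segments are not named, and some list genes are not reported here.

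Libraries of a group differed beyond sampling noise, with a chi-square per degree of freedom of 8 to 52.9. Pairs of CT libraries had 17.6 to 52.9. Pairs among OE libraries 1 to 3 had 8 to 11.0 in OE-CTD and 8.76 to 15.7 in OE-WD. Pairs of these with library 4 had 39.0 to 45.0 in OE-CTD and 40.7 to 44.3 in OE-WD. Same-numbered CT libraries deviated together across the diets (r = 0.385, 0.123 and 0.203 over genes). Same-numbered OE libraries did so too (r = 0.0711, 0.138, 0.142 and 0.338). The main fit paired no libraries in any comparison, and the replicate number entered only as a block in an alternative. Whether same-numbered libraries are true pairs was not given in the sources used here.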

Additional observations from a re-analysis of the deposited data

Results flagged for a closer look

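In OE-WD, 1 library stood apart for Ighg2c: OE-WD 3 had 1 count and the other 3 libraries had 0, so the gap to the nearest library was the whole range of the group, a ratio of 1. Over the 8 genes, 13 group values could be examined in this way, and chance sets apart about 1 in 20. A single count does not differ from 0 at this depth.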

How the results depend on the processing

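Of 501 member differences recomputed under the alternatives, 476 moved by less than the spread between replicates and 25 by more. None turned a call to the opposite direction, but calls were lost under some alternatives and gained under others. For Igha, OE-CTD against CT-CTD ran from -3.93 to -2.04 over 16 alternatives, all negative, and was called at the adjusted level in 13, and OE-WD against CT-WD ran from -3.15 to -1.25, all negative, and was called in 3. For list genes, 32 of 1275 counts of calls moved by over 1.5 times, and nearly all counts were 0, so the others say nothing of stability. The counts below are of genes altered, and the cause of the changes was not tested.

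At the adjusted level, OE-CTD against CT-CTD (295) gave 157 with total counts, 570 without a filter, 504 with DESeq2, 117 and 196 with limma on log2(FPKM + 1) and log2(FPKM + 0.1), and 111 without both CT libraries numbered 3, an alternative chosen after seeing the data. OE-WD against CT-WD (87) gave 10, 401, 308, 30, 30 and 9 under the same settings, and 4 with only the 2 groups in the fit. CT-WD against CT-CTD (0) gave 88 without a filter and 31 with DESeq2, OE-WD against OE-CTD (1) gave 5 without a filter, and the interaction (0) gave 29 without a filter and 9 with DESeq2.

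At the unadjusted level without a filter, CT-WD against CT-CTD (471) gave 832, OE-WD against OE-CTD (212) 667, the interaction (417) 904 and OE-WD against CT-WD (887) 1412. With limma on log2(FPKM + 1) they gave 103, 31, 134 and 264, and OE-CTD against CT-CTD (1101) gave 333. CT-WD against CT-CTD gave 312 with only the 2 groups in the fit, and OE-WD against CT-WD gave 584 without both CT libraries numbered 3.

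With the replicate number as a block, the adjusted counts were 151 in OE-CTD against CT-CTD, 6 in OE-WD against CT-WD and 1 in the interaction, and no other count moved by over 1.5 times. Same-numbered libraries did not deviate together between genotypes (r from -0.23 to 0.0465), and in OE-WD against OE-CTD r was 0.0711, 0.138, 0.142 and 0.338. A library correlated best with its own number in 5 of 6 CT libraries across the diets, in 7 of 8 OE libraries across the diets, in 0 of 6 libraries between genotypes on the western diet and in 1 of 6 on the control diet, as a hint from the data.

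Leaving out 1 library at a time gave, at the adjusted level, 0 to 41 (without CT-WD 1) in CT-WD against CT-CTD, 0 to 2 in OE-WD against OE-CTD, 64 (without CT-CTD 3) to 309 in OE-CTD against CT-CTD, 4 (without OE-WD 2) to 905 (without CT-WD 1) in OE-WD against CT-WD, and 0 to 1 in the interaction. At the unadjusted level the ranges were 413 to 860, 189 to 230, 915 to 1351, 595 to 1875 and 368 to 777.

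Igkc, Jchain, Ighg2c and Ighg3 rest on few counts, which limits what can be seen. Reads from the short stretches that the Ighg genes share are uncertain between them.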
